A study of Homo sapiens with 14 samples.

Results

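The comparison set U2OS cells given 2-PCPA against U2OS cells given rapamycin, with no vehicle in between. Its members were the 4 libraries that the labels name for these compounds, of 14 libraries in the series. 2-PCPA was given at 1 mM for 12 h (2 libraries) and rapamycin at 5 μM for 24 h (2 libraries), so dose and exposure time differed along with the compound, and the part of each in any difference cannot be told apart. The series as a whole gave U2OS cells 9 small molecules or 0.5% DMSO, and expression was measured by sequencing of poly(A) RNA. Each compound here had 1 library in a table of first replicates and 1 in a table of second replicates. The second table held DMSO, 2-PCPA, GSK343 (10 μM, 24 h) and rapamycin. In the main fit, the DMSO and GSK343 libraries entered only through the spread between replicates. With 1 library left out, they also shaped the estimated difference between tables, so values given without a library depend on them too. All cells were of the same line and culture medium, with no engineered allele stated in the labels, and the labels do not say whether replicates were separate cultures. The p-values thus measure the spread between these libraries, which may be technical.

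U2OS is a human osteosarcoma line widely used to image autophagy, the process that packs cytoplasm into membrane vesicles and delivers it to lysosomes. 2-PCPA (tranylcypromine) is a cyclopropylamine that binds the flavin cofactor of amine oxidases. It inhibits monoamine oxidases and the histone H3 lysine 4 demethylase KDM1A. Rapamycin binds the immunophilin FKBP1A, and the complex inhibits mTORC1, the kinase complex that promotes translation, lipid synthesis and ATF4 translation and restrains autophagy when nutrients are plentiful. The series' title links blocked H3K4 demethylation to autophagy, and rapamycin is a standard inducer of autophagy, which is the question this pair of compounds addresses.

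Of 22919 gene symbols present in both tables, 12475 averaged 1 FPKM or more across the 4 libraries and were tested with limma on log2(FPKM + 1), with differences taken within a table after each library was centred on its median. FPKM counts sequenced fragments relative to transcript length and to the mapped fragments of the library. At an adjusted p below 0.05, 36 genes (0.289% of those tested) were called, 21 higher with 2-PCPA (0.168%) and 15 lower (0.12%). An unadjusted p below 0.05 was reached by 2221 genes (17.8%), 909 higher and 1312 lower. All 36 differed in the same direction in both tables and in every alternative setting that tested them (16 settings, or 15 for FGF21, which averages under 5 FPKM, and for RNU4ATAC, a small RNA row). Calls and settings rest on the same libraries, so this agreement is largely built into the call and is no separate support. Over all genes tested, differences correlated between tables at 0.199 (0.433 without small RNA and clone rows). The number called was sensitive to the setting. It was 274 (110 higher, 0.904%, and 164 lower, 1.35%, of 12172) with rows for small RNAs and unnamed clones left out, 27 (19 higher and 8 lower) with quantile normalization, and 3 with no term for the table. The small RNA and clone rows, 303 of those tested, were picked by the form of their symbol. Other genes whose symbols begin alike can be among them. The called genes included genes of the integrated stress response and of sterol synthesis on the higher side, and metallothioneins, actin-linked genes and secreted matrix regulators on the lower side.

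The first 2-PCPA library stood apart from the others. Its FPKM values summed to 272944, against 427194 in the first rapamycin library, while the second table had 540171 with 2-PCPA and 603924 with rapamycin. Of 371 olfactory receptor genes, which bone-derived cells hardly use, 28.3% were above 0 FPKM in the first 2-PCPA library and 5.93% in the second 2-PCPA library, against 6.2% and 5.93% in the rapamycin libraries. Low FPKM steps put the depth of 2-PCPA at 1.02 times rapamycin in the first table and 1.1 times in the second, and absolute depth is unknown. Differences were larger in the first table for 31 of the 36 called genes. Without the first 2-PCPA library, all 36 kept their direction, and 61 genes were called, of which 11 were among the 36 and 45 were small RNA or clone rows. What part the state of this library has in the results was not tested. In each library 7 of 8 mesenchymal markers (VIM, SPARC, COL1A1 and others) were at 1 FPKM or more, with COL1A2 at or near 0. Markers of other cell types summed to 1.72 and 1.96 FPKM with 2-PCPA and to 2.05 and 3.43 FPKM with rapamycin over 12 genes, of which EPCAM gave most and CD3E and MYH7 were among those at 0 throughout.

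**Figure D1:**
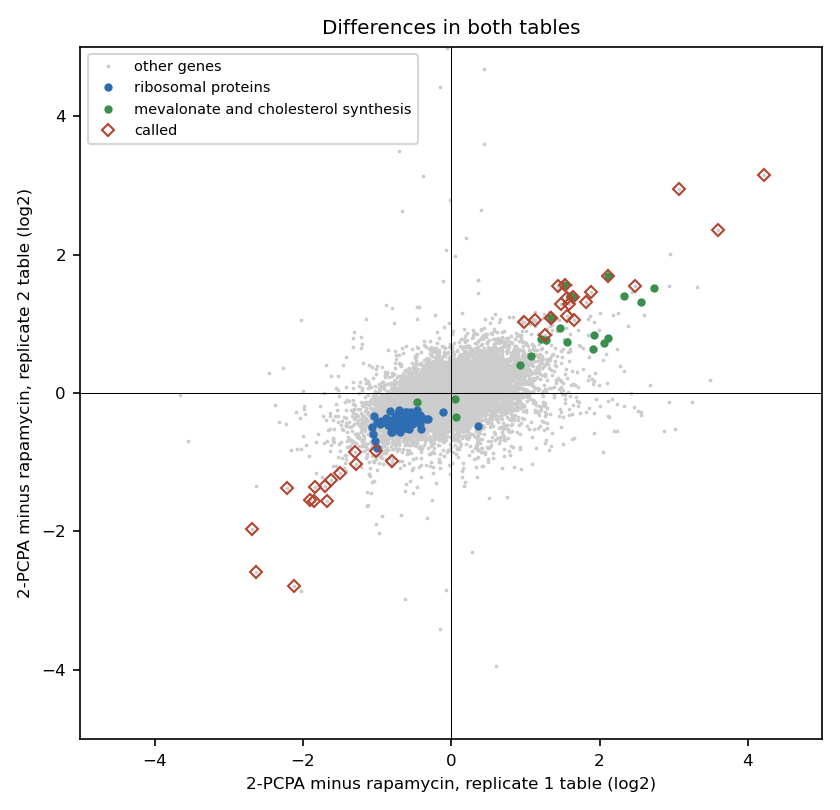
Difference between 2-PCPA and rapamycin in the first table (horizontal axis) against that in the second (vertical axis), in centred log2(FPKM + 1), each point a gene, without small RNA and clone rows, with 2 genes outside the plotted range. Called genes lie in the upper right and lower left corners, cholesterol synthesis genes mostly to the upper right, and ribosomal protein genes in a compact group at the lower left.

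Promoter sequences are shown for 6 called genes whose window holds a match to a motif linked by textbook knowledge to their pathway, so that the sequence can be read beside the values that follow. The windows come from RefSeq (GRCh38.p14), run 5′ to 3′ on the gene's strand, and cover 250 bases before to 50 bases after the annotated start. Matches on either strand are in capitals. For the metallothionein genes these are the core of the metal response element, searched as TGCACNC and TGCGCNC, on the + strand at chr16:56608334-56608633 (MT2A) and chr16:56682220-56682519 (MT1X):
MT2A: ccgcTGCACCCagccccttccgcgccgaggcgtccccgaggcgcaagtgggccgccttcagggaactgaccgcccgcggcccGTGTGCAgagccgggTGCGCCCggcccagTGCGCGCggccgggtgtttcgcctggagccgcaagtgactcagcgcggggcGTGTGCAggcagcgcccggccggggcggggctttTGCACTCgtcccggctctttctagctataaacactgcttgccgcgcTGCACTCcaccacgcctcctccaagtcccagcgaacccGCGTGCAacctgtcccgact
MT1X: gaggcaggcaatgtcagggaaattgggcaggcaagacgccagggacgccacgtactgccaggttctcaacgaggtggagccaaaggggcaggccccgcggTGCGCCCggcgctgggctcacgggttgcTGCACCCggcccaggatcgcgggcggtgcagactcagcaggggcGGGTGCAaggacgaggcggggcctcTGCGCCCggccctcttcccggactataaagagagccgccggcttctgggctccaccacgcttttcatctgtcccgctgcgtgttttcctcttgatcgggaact
The MT2A window held 8 matches and the MT1X window 4. At least 1 match was present in 29.6% of all 35116 windows, and 8 or more in 0.0199%. TGCACNC was present in 12.1% of all windows and TGCGCNC in 20.0%. Of the called genes with a window, TGCACNC was found in 4 of 8 lower and 1 of 12 higher genes, and TGCGCNC in 6 of 8 lower and 4 of 12 higher genes. Here and below, a gene counts if any of its windows holds a match, and some genes have several. Such counts cannot be set against shares of windows. They also include the genes shown, which were chosen for holding a match, so no enrichment is shown.

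For the stress genes CHAC1 (chr15:40953221-40953520, + strand) and FGF21 (chr19:48755274-48755573, + strand), the capitals mark TGATGCAA, the composite C/EBP-ATF site known as the amino acid response element:
CHAC1: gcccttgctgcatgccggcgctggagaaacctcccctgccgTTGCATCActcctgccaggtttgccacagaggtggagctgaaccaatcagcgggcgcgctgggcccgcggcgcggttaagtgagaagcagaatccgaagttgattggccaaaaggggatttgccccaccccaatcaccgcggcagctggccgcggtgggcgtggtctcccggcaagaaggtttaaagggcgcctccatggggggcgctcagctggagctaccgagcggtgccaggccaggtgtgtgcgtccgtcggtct
FGF21: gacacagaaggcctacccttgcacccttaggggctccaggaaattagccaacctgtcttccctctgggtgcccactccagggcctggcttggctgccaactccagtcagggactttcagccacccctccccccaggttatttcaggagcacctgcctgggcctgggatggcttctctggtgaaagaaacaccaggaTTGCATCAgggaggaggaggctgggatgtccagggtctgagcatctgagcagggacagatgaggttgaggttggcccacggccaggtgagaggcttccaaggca
Both hold it on the opposite strand. It occurred in 0.866% of all windows, in 2 of the 12 genes called higher that had a window, and in 0 of the 8 called lower that had one.

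For MVK (chr12:109573544-109573843, + strand) the capitals mark TCACCCCA, a core of the sterol regulatory element, and for ACTG1 (chr17:81512750-81513049, - strand) they mark a CArG box, the site of serum response factor:
MVK: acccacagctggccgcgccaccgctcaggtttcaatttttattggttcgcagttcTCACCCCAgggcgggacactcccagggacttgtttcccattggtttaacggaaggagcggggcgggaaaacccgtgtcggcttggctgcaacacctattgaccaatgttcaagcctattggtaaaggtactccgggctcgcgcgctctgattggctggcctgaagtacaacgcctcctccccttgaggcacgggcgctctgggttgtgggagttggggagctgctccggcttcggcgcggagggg
ACTG1: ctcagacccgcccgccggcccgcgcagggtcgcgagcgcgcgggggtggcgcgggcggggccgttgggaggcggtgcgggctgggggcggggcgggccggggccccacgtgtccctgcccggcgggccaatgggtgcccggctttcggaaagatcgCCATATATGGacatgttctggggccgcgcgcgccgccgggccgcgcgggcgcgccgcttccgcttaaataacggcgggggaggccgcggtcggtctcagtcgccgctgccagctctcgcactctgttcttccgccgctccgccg
TCACCCCA was present in 1.54% of all windows, in 1 of the 12 higher genes and in 0 of the 8 lower ones. A CArG box was present in 1.29% of all windows, in 0 of the 12 higher genes and in 2 of the 8 lower ones. These matches describe the letters in the windows and do not show binding or use. MT1E, VEGFA, CYR61, PSPH, YARS and GPT2 were among the called genes with no window.

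**Figure D2:**
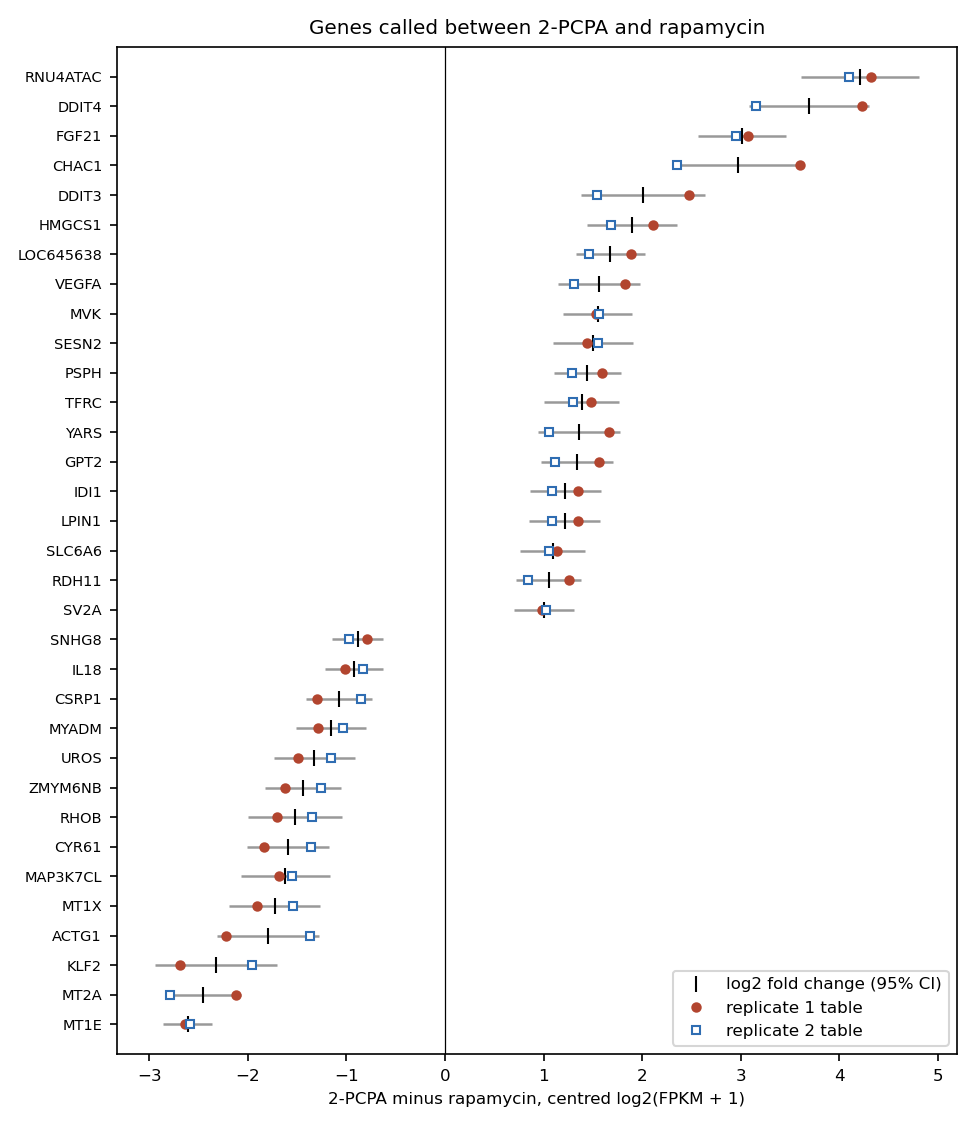
Difference between 2-PCPA and rapamycin in centred log2(FPKM + 1) for 33 of the 36 called genes. Filled circles are the first table, open squares the second, and black ticks the fitted log2 fold change with its 95% confidence interval; every gene drawn has both table values on the same side of 0.

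Among protein-coding genes, the 3 highest log2 fold changes called were those of DDIT4, FGF21 and CHAC1, genes of the integrated stress response. In this response, phosphorylation of the initiation factor eIF2 favours translation of the transcription factor ATF4, which induces amino acid supply genes and feedback genes. Of 20 tested genes of an ATF4 stress list, 6 were called higher and 0 lower, 19 were higher in both tables (30.8% of all genes tested were) and the median log2 fold change was 1.23, against 0.00 over all genes tested. DDIT4, an inhibitor of mTORC1 signalling, had 61.1 and 77.7 FPKM with 2-PCPA, against 3.25 and 7.53 FPKM with rapamycin. DMSO libraries had 18.1 and 17.7 FPKM, so 2-PCPA lay above and rapamycin below them. The log2 fold change of DDIT4 was 3.69 (SE 0.26, adjusted p = 0.00458), the highest among protein-coding genes called.

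CHAC1, a glutathione-degrading enzyme, had 29.2 and 34.5 FPKM with 2-PCPA and 2.19 and 5.7 FPKM with rapamycin. Its log2 fold change was 2.98 (SE 0.27, adjusted p = 0.0181). DDIT3, which encodes the stress transcription factor CHOP, had 21.0 and 32.1 FPKM with 2-PCPA, against 4.08 and 9.94 FPKM with rapamycin, and its log2 fold change was 2.01 (SE 0.27, adjusted p = 0.0459). FGF21, a secreted hormone induced by ATF4, had 5.57 and 11.7 FPKM with 2-PCPA. In the rapamycin libraries it was listed at 0 in the first table and at 0.575 FPKM in the second. The fitted value of FGF21, 3.01, ran from 1.43 to 5.14 across the alternative settings, as it depends on the pseudocount.

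SESN2, a leucine-binding inhibitor of mTORC1, had 18.2 and 26.7 FPKM with 2-PCPA, against 8.03 and 8.12 FPKM with rapamycin (log2 fold change 1.50, SE 0.17, adjusted p = 0.0329). It was the single called gene in a list of 27 tested regulators of mTORC1, which does not hold the inhibitor DDIT4. That list's median was -0.02 (0.01 without the first and -0.11 without the second rapamycin library). VEGFA, the angiogenic growth factor that ATF4 and hypoxia both induce, stood at 20.5 and 30.1 FPKM with 2-PCPA and at 6.77 and 11.1 FPKM with rapamycin (log2 fold change 1.57, adjusted p = 0.0329). ATF4 itself had 338 and 475 FPKM with 2-PCPA, against 209 and 360 FPKM with rapamycin, a log2 fold change of 0.70 that was not called (adjusted p = 0.143). TRIB3, a pseudokinase that CHOP induces, had 16.6 and 19.2 FPKM with 2-PCPA, against 3.75 and 7.69 FPKM with rapamycin, and missed the threshold (1.70, adjusted p = 0.0601). Without small RNA and clone rows 12 of the 20 were called higher, TRIB3, ADM2 and NUPR1 among the further ones. PPP1R15A, the phosphatase subunit that reverses eIF2 phosphorylation, was the 1 member lower with 2-PCPA in both tables (19.4 and 30.0 FPKM, against 35.5 and 41.6 FPKM with rapamycin, adjusted p = 0.143); it was picked out after its values were seen.

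Enzymes of amino acid synthesis, which ATF4 is known to induce, gave 2 of 16 called higher and 0 lower, with a median of 0.72 and 12 higher in both tables. PSPH, the last enzyme of serine synthesis, had 18.6 and 18.9 FPKM with 2-PCPA, against 7.31 and 6.84 FPKM with rapamycin. The replicates of each compound agree closely, and the log2 fold change was 1.44 (SE 0.14, adjusted p = 0.0246). GPT2, the mitochondrial alanine transaminase, had 25.6 and 33.7 FPKM with 2-PCPA, against 10.5 and 14.5 FPKM with rapamycin (1.34, adjusted p = 0.0341). PSAT1, which acts before PSPH, had a larger log2 fold change of 1.87 but differed between tables, by 2.60 in the first and 1.13 in the second, and was not called (adjusted p = 0.0986). The asparagine synthetase ASNS likewise differed by 2.24 in the first table and 0.64 in the second (adjusted p = 0.139). Once small RNA and clone rows were left out, 7 of the 16 were called higher.

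Of 11 amino acid transporters 0 were called by limma (9 at an unadjusted p below 0.05, against 17.8% of all genes tested), while 10 were higher with 2-PCPA in both tables and the median was 0.84. Of these, 7 were called higher once small RNA and clone rows were left out of the fit. SLC6A9, a glycine transporter, had 10.7 and 13.6 FPKM with 2-PCPA, against 2.71 and 5.32 FPKM with rapamycin (1.58, adjusted p = 0.0592). SLC1A5, a glutamine transporter, had 140 and 225 FPKM with 2-PCPA, against 53.8 and 134 FPKM with rapamycin (1.21, adjusted p = 0.103). Among 20 aminoacyl tRNA synthetases, which charge tRNAs with amino acids, YARS (tyrosine) was called, at 73.4 and 98.9 FPKM with 2-PCPA and 29.1 and 45.5 FPKM with rapamycin (1.35, adjusted p = 0.0459). The list's median was 0.37 (0.21 without the first and 0.57 without the second 2-PCPA library), and 12 members were higher and 2 lower in both tables. Of the 20, 5 were called higher without small RNA and clone rows.

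Of 21 tested genes of the mevalonate and cholesterol synthesis pathway, 4 were called higher with 2-PCPA and 0 lower. The transcription factor SREBP2 is known to induce this pathway when membrane sterol is low, and mTORC1 promotes SREBP activity. Of these, 18 were higher in both tables, and the median was 1.28 (0.78 without the first rapamycin library). Without small RNA and clone rows 14 were called higher. PMVK was the 1 member lower in both tables (log2 fold change -0.30, adjusted p = 0.407), picked out after its values were seen. HMGCS1, which makes HMG-CoA, had 41.4 and 60.8 FPKM with 2-PCPA, against 11.5 and 17.5 FPKM with rapamycin (1.90, SE 0.19, adjusted p = 0.0255). DMSO had 35.8 and 31.6 FPKM of HMGCS1, between the compounds in both tables.

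MVK, mevalonate kinase, had 17.2 and 27.0 FPKM with 2-PCPA, against 7.01 and 8.13 FPKM with rapamycin. Its differences were 1.53 in the first table and 1.56 in the second, close to each other (log2 fold change 1.55, adjusted p = 0.0214). IDI1, which isomerises isopentenyl diphosphate, had 20.2 and 22.1 FPKM with 2-PCPA, against 9.6 and 9.49 FPKM with rapamycin (1.22, adjusted p = 0.0436). DHCR7 and SQLE, which act later, had larger differences with more spread between tables. DHCR7, the last reductase, had 50.8 and 89.8 FPKM with 2-PCPA, against 8.9 and 29.5 FPKM with rapamycin (2.13, SE 0.40, adjusted p = 0.0953). SQLE, which oxidises squalene, had 73.9 and 94.8 FPKM with 2-PCPA, against 18.1 and 34.0 FPKM with rapamycin (1.87, SE 0.26, adjusted p = 0.0556).

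Of 11 genes for sterol sensing, uptake and efflux, 1 was called higher and 0 lower, and the median was -0.05 (above 0 without any 1 of the 4 libraries, at 0.11 without the first 2-PCPA library). INSIG1, a sterol-dependent anchor of SREBP, had 15.4 and 21.5 FPKM with 2-PCPA, against 2.89 and 6.9 FPKM with rapamycin (1.95, adjusted p = 0.0535). It was among 3 of the 11 called higher without small RNA and clone rows. Fatty acid synthesis genes were higher in both tables for 13 of 14, with a median of 0.55 and 1 called. That gene, LPIN1, encodes a phosphatidate phosphatase and had 19.8 and 34.7 FPKM with 2-PCPA, against 9.47 and 15.2 FPKM with rapamycin (1.22, adjusted p = 0.0436). The stearoyl-CoA desaturase SCD had 85.6 and 113 FPKM with 2-PCPA, against 13.5 and 36.9 FPKM with rapamycin (2.24, SE 0.40, adjusted p = 0.0905). Once small RNA and clone rows were left out, 4 of the 14 were called higher, SCD among them.

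**Figure D3:**
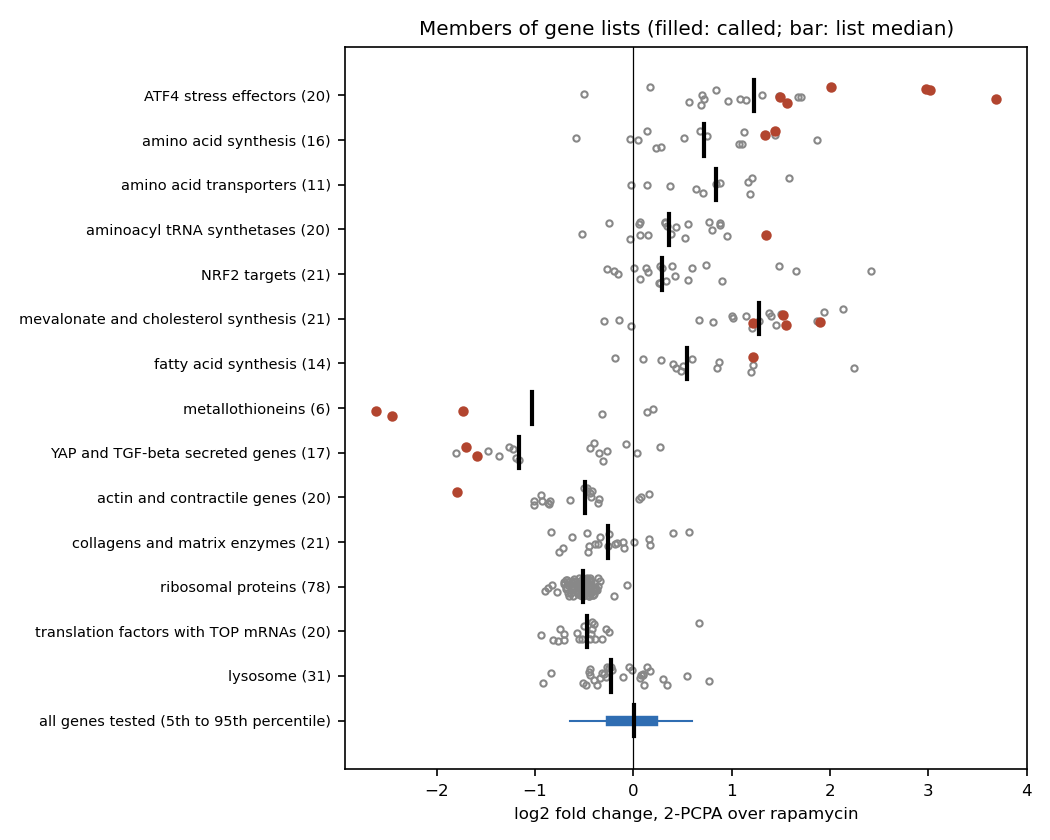
Log2 fold change, 2-PCPA over rapamycin, of every tested member of 14 gene lists, with the number tested in brackets. Filled points were called, black bars are list medians, and the bottom row gives all genes tested; stress and sterol lists lie to the right of 0, and metallothionein, matrix and ribosomal lists to the left.

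TFRC and UROS, an iron and a haem gene, were called and belong to none of the lists. TFRC, the transferrin receptor that imports iron, had 48.1 and 56.5 FPKM with 2-PCPA, against 21.6 and 21.6 FPKM with rapamycin. Its log2 fold change was 1.38 (SE 0.16, adjusted p = 0.0344), and rapamycin was the lowest of the 10 libraries of the first table. UROS, uroporphyrinogen III synthase of haem synthesis, had 5.0 and 6.5 FPKM with 2-PCPA, against 20.6 and 15.1 FPKM with rapamycin (log2 fold change -1.33, SE 0.17, adjusted p = 0.0459). HMOX1, the haem-degrading oxygenase that NRF2 induces, had 136 and 107 FPKM with 2-PCPA, against 16.7 and 34.8 FPKM with rapamycin. The difference was 3.31 in the first table and 1.53 in the second. It was not called (2.42, SE 0.43, adjusted p = 0.0905, or 0.0159 without small RNA and clone rows). Of 21 NRF2 target genes 0 were called by limma (9 at an unadjusted p below 0.05, against 17.8% of all genes tested). Of the 21, 16 were higher in both tables (30.8% of all genes tested were), and the median was 0.29 (0.48 without the second 2-PCPA library).

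Metallothioneins, small cysteine-rich proteins that bind zinc and copper and are induced through the metal-sensing factor MTF1, held the 2 lowest log2 fold changes of all genes called. The 3 called members were lower with 2-PCPA, out of 6 tested genes in a metallothionein list that also holds MTF1 and the zinc exporter SLC30A1; 0 were called higher. MT1E had 82.1 and 175 FPKM with 2-PCPA, against 659 and 1020 FPKM with rapamycin. The difference was -2.64 in the first table and -2.59 in the second, and the log2 fold change of -2.61 (SE 0.10, 95% confidence interval -2.86 to -2.37, adjusted p = 0.000462) had the lowest p of all genes tested. MT2A had 494 and 1260 FPKM with 2-PCPA, against 2740 and 8410 FPKM with rapamycin (-2.45, SE 0.16, adjusted p = 0.00378). DMSO had 982 and 2240 FPKM of MT2A, between the compounds.

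MT1X had 13.4 and 40.4 FPKM with 2-PCPA, against 68.2 and 116 FPKM with rapamycin (-1.73, SE 0.20, adjusted p = 0.0329). MT1E and MT2A were lowest with 2-PCPA among the 10 libraries of the first table. The other compounds given for 12 h did not share this, as MT1E stood at 4030 FPKM with BIX-01294 and at 12000 FPKM with GSK-J4, both above its level with rapamycin. Metallothionein genes are near-identical copies, so reads may be split between them by the counting. The zinc exporter SLC30A1 and MTF1 were not called.

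**Figure D4:**
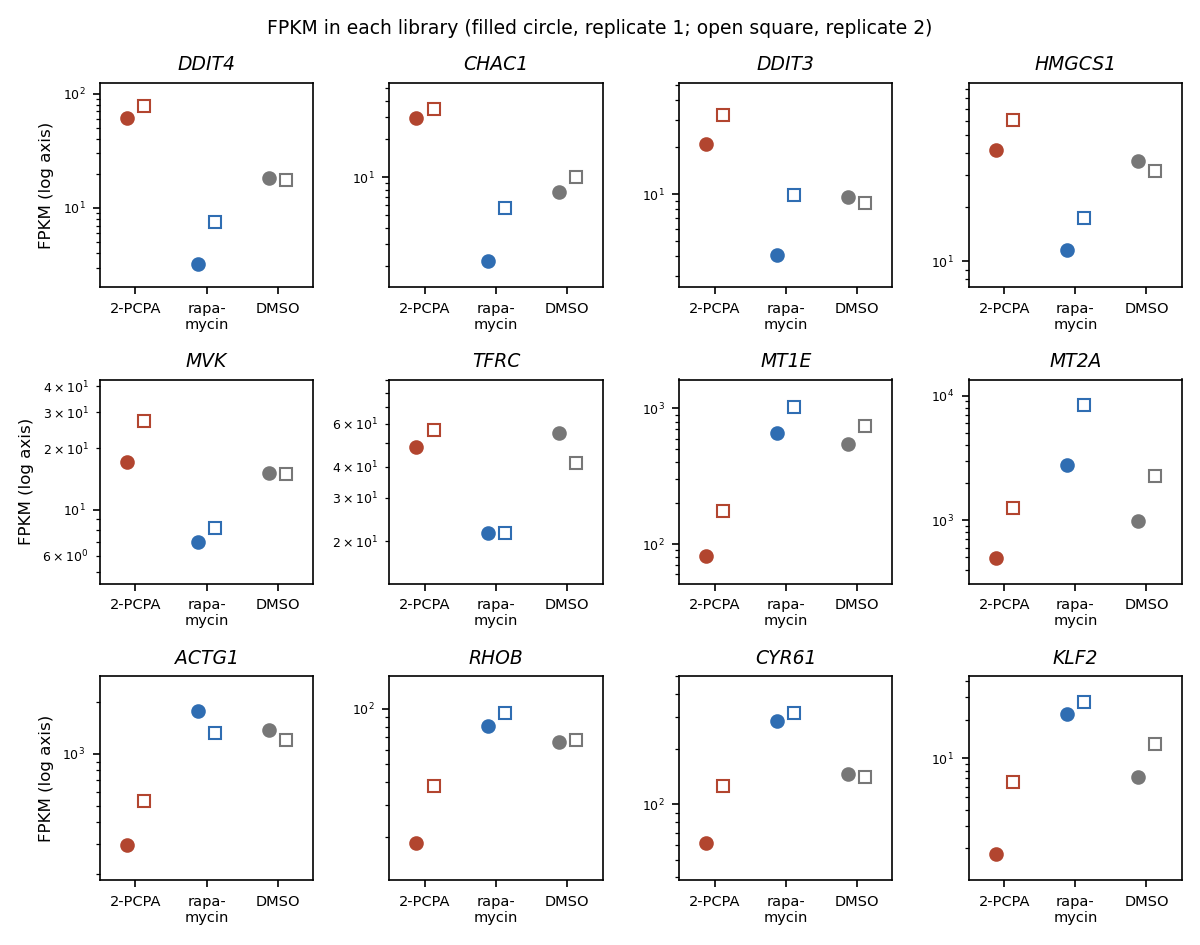
FPKM on a logarithmic axis of 12 called genes in each library of 2-PCPA, rapamycin and DMSO, with filled circles for the first replicate and open squares for the second. In each panel both 2-PCPA values lie on one side of both rapamycin values, from DDIT4 at 61.1 and 77.7 against 3.25 and 7.53 to KLF2 at 1.82 and 6.57 against 22.2 and 27.4. The panels show called genes only, and the share of all genes with such a separation was not counted.

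Of 20 actin and contractile genes tested, 1 was called lower with 2-PCPA, 0 were called higher, and 17 were lower and 1 higher in both tables (32.8% of all genes tested were lower in both). The called member was ACTG1. This gene, cytoplasmic gamma actin, had 296 and 530 FPKM with 2-PCPA, against 1770 and 1320 FPKM with rapamycin. That gave -2.22 in the first table and -1.37 in the second (log2 fold change -1.79, SE 0.22, adjusted p = 0.0425), and 2-PCPA was the lowest and rapamycin the highest of the 10 libraries of the first table on the centred scale. ACTG1 shares long stretches with other actin genes, so its reads are uncertain. The list had a median of -0.49 (-0.75 without the second rapamycin library), and 5 members were called lower without small RNA and clone rows. TPM1, a tropomyosin, had 107 and 138 FPKM with 2-PCPA, against 352 and 213 FPKM with rapamycin, and was not called (-1.01, adjusted p = 0.0905).

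RHOB, a small GTPase that acts on the actin cytoskeleton, had 18.7 and 37.9 FPKM with 2-PCPA, against 81.1 and 94.5 FPKM with rapamycin (-1.52, SE 0.20, adjusted p = 0.0459). CSRP1, a LIM-domain protein of the actin cytoskeleton, had 28.2 and 41.1 FPKM with 2-PCPA, against 90.7 and 72.5 FPKM with rapamycin (-1.08, adjusted p = 0.0459). MYADM, a membrane protein, had 10.1 and 17.9 FPKM with 2-PCPA, against 33.7 and 36.3 FPKM with rapamycin (-1.16, adjusted p = 0.0459). The FPKM values of the compounds did not overlap for these 3. How many of all genes share this was not counted, so it adds nothing to the calls.

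Secreted genes that YAP and TGF-beta are known to induce, with their regulators, had a median of -1.16 over 17 tested (-0.71 without the second rapamycin library), with 14 lower and 1 higher in both tables and 2 called lower. CYR61, a matricellular protein and YAP target, had 62.0 and 127 FPKM with 2-PCPA, against 286 and 314 FPKM with rapamycin (-1.59, SE 0.18, adjusted p = 0.0329). CYR61 kept its call without the first 2-PCPA library, at -1.29 (adjusted p = 0.0256). CTGF, the companion of CYR61, had 81.0 and 153 FPKM with 2-PCPA, against 228 and 454 FPKM with rapamycin. It missed the threshold (-1.37, SE 0.26, adjusted p = 0.0987, or 0.0263 without small RNA and clone rows). DMSO had 91.7 and 95.6 FPKM of CTGF, near the 2-PCPA level. TGFBI had 9.33 and 7.86 FPKM with 2-PCPA, against 43.2 and 18.8 FPKM with rapamycin (-1.48, adjusted p = 0.0546, or 0.00846 without small RNA and clone rows). AJUBA was the exception, at 39.3 and 56.7 FPKM with 2-PCPA and 42.8 and 43.8 FPKM with rapamycin, and was picked out after its values were seen.

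KLF2, a transcription factor of the Krüppel-like family, had 1.82 and 6.57 FPKM with 2-PCPA, against 22.2 and 27.4 FPKM with rapamycin (-2.32, SE 0.26, adjusted p = 0.0329). It was the 1 called of 11 KLF factors, a list with a median of -0.25 (-0.07 without the first and -0.40 without the second 2-PCPA library, and -0.12 without the first rapamycin library). In the first table rapamycin had the highest KLF2 level of the 10 libraries and 2-PCPA the lowest. IL18, a cytokine precursor, had 113 and 142 FPKM with 2-PCPA, against 293 and 244 FPKM with rapamycin (-0.92, SE 0.12, adjusted p = 0.0487). Of 11 NF-kB target and cytokine genes 0 were called by limma (6 at an unadjusted p below 0.05, against 17.8% of all genes tested). Of the 11, 7 were lower and 0 higher in both tables, against 32.8% lower and 30.8% higher among all genes tested. The list's median was -0.52 (-0.20 without the first rapamycin library and -0.31 without the first 2-PCPA library). The early-response genes JUNB (6.52 and 18.0 FPKM with 2-PCPA, 24.1 and 28.5 FPKM with rapamycin) and MYC (29.5 and 39.6 FPKM with 2-PCPA, 59.2 and 63.4 FPKM with rapamycin) were not called, at adjusted p = 0.174 and 0.118. MYC passed the threshold without small RNA and clone rows (adjusted p = 0.0491).

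The other genes called lower were MAP3K7CL, ZMYM6NB and SNHG8. MAP3K7CL had 1.8 and 4.44 FPKM with 2-PCPA, against 10.5 and 14.4 FPKM with rapamycin (-1.62, adjusted p = 0.0363). ZMYM6NB, which overlaps ZMYM6 so that reads may be shared, had 6.3 and 12.8 FPKM with 2-PCPA, against 27.8 and 30.8 FPKM with rapamycin (-1.44, adjusted p = 0.0329). SNHG8, a noncoding host transcript of a small nucleolar RNA, had 62.8 and 147 FPKM with 2-PCPA, against 141 and 281 FPKM with rapamycin. Its values overlap across tables but not within them, and the log2 fold change was -0.89 (SE 0.11, adjusted p = 0.0436). Beyond the genes above, LOC645638, SLC6A6, RDH11 and SV2A were called higher, the last 3 named after their values were seen. LOC645638 had 15.3 and 22.4 FPKM with 2-PCPA, against 4.63 and 7.18 FPKM with rapamycin, with DMSO above both at 22.4 and 27.9 FPKM. SLC6A6, the taurine transporter, rose by 1.09 (adjusted p = 0.0459), RDH11, a retinol dehydrogenase, by 1.05 (adjusted p = 0.0485), and SV2A, a synaptic vesicle protein, by 1.00 (adjusted p = 0.0459) on the log2 scale.

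A small nuclear RNA was called as well. RNU4ATAC, the U4atac RNA of the minor spliceosome, had 14.6 and 16.7 FPKM with 2-PCPA and was listed at 0 in both rapamycin libraries and in both DMSO libraries. A listed 0 in FPKM gives no bound, so no fold is stated. The RNA is short and has no poly(A) tail, while the libraries were made from poly(A) RNA. It was named after its values were seen.

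DMSO lay between the compounds in both tables for 18 of the 21 genes called higher and for 14 of the 15 called lower, on the centred scale. Among the 10 libraries of the first table, rapamycin was lowest for 10 of the 21 higher genes and 2-PCPA highest for 3. For the 15 lower genes, 2-PCPA was lowest for 13 and rapamycin highest for 3. Exposure time could be set beside this in that table alone, where BIX-01294 and GSK-J4 were also given for 12 h, with 1 library each. Both lay on the 2-PCPA side of rapamycin for 14 of the 21 higher genes and for 6 of the 15 lower genes, and 0 of them did for 5 lower genes. All 5 other compounds given for 24 h lay on that side for 13 of the 21 higher genes and for 5 of the 15 lower genes. These are positions of single libraries with other compounds and doses, and the part of time was not tested beyond them. The genes were called for a gap between 2-PCPA and rapamycin in these same libraries. That selection by itself favours DMSO in between, outer ranks for the compounds and other libraries on the 2-PCPA side. The shares over all genes tested were not counted, so these positions add nothing to the calls.

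Ribosomal protein genes lay lower with 2-PCPA by small amounts, without a call. Their mRNAs carry a 5′ terminal oligopyrimidine tract, which makes their translation depend on mTORC1. Of 78 tested, 0 were called in either direction by limma (76 at an unadjusted p below 0.05, against 17.8% of all genes tested). The median log2 fold change was -0.51, and 77 were lower with 2-PCPA in both tables (32.8% of all genes tested were). The remaining gene, RPS18, was listed at 0 in all first-table libraries used. RPL3 had 655 and 1040 FPKM with 2-PCPA, against 1690 and 1750 FPKM with rapamycin (-0.90, SE 0.14, adjusted p = 0.0674). The size of this difference depended on the scaling. With quantile normalization its median was -0.05, and 23 of the 78 genes lay above 0. Without small RNA and clone rows 12 were called lower. Many have processed pseudogenes, so their reads are uncertain.

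A list of translation factors and other genes with mRNAs of the same kind, HNRNPA1 and VIM among the others, had a median of -0.47. Of its 20 genes, 19 were lower in both tables and 0 were called. Once small RNA and clone rows were left out, 6 of the 20 were called lower, HNRNPA1 and VIM among them. EEF2, the elongation factor that moves the ribosome, had 301 and 621 FPKM with 2-PCPA, against 889 and 959 FPKM with rapamycin (-0.94, adjusted p = 0.0986). The quantile-normalized median of the list was -0.24. EIF4EBP1, a translation repressor that mTORC1 phosphorylates and ATF4 induces, was the exception and was picked out after its values were seen. It had 133 and 243 FPKM with 2-PCPA, against 78.7 and 201 FPKM with rapamycin (0.66, adjusted p = 0.206).

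No autophagy gene passed the test over all 12475 rows, while 3 were called lower once small RNA and clone rows were left out. Of 51 tested genes for initiation, membrane growth and conjugation, the ATG8 family and cargo receptors, 0 were called by limma. Medians were 0.08 for 13 initiation genes and 0.08 for 18 membrane and conjugation genes, -0.36 for 5 ATG8 genes and -0.12 for 15 cargo receptors. Single libraries moved these medians. The initiation median was -0.03 without the first rapamycin library and 0.03 without the first 2-PCPA library, and the membrane and conjugation median was -0.05 without the first 2-PCPA library and 0.03 without the second rapamycin library. The ATG8 median was -0.04 without the first rapamycin library and -0.10 without either 2-PCPA library, and the cargo receptor median was -0.05 without the second 2-PCPA library and -0.18 without the first rapamycin library. An unadjusted p below 0.05 was reached by 10 of the 51, 3 higher and 7 lower with 2-PCPA, and by 17.8% of all genes tested. A gene that misses the threshold is not thereby shown to be equal, since the 95% confidence interval extended 0.44 log2 each way for the median gene.

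WDR45, a phosphoinositide-binding protein of the WIPI family, showed the largest difference among them. It had 14.9 and 23.1 FPKM with 2-PCPA, against 46.4 and 48.0 FPKM with rapamycin. DMSO had 15.3 and 19.3 FPKM, close to 2-PCPA. The log2 fold change was -1.15 (SE 0.18, adjusted p = 0.0674), and WDR45 was called without small RNA and clone rows (adjusted p = 0.0152). NBR1, a cargo receptor for ubiquitinated proteins, had 15.4 and 23.5 FPKM with 2-PCPA, against 37.1 and 37.0 FPKM with rapamycin (-0.78, SE 0.13, adjusted p = 0.0833, or 0.0302 without those rows). PHB2, an inner mitochondrial membrane receptor for mitophagy, had 61.8 and 115 FPKM with 2-PCPA, against 141 and 158 FPKM with rapamycin (-0.66, adjusted p = 0.0914, or 0.0349 without those rows).

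Of the kinase complexes that start autophagy, BECN1 had 13.2 and 17.2 FPKM with 2-PCPA, against 25.3 and 25.9 FPKM with rapamycin (-0.58, adjusted p = 0.118). ATG13 had 9.34 and 13.8 FPKM with 2-PCPA, against 19.6 and 19.6 FPKM with rapamycin (-0.59, adjusted p = 0.135). The kinase gene ULK1 differed by -0.78 in the first table and -0.15 in the second (adjusted p = 0.425). ATG5 and ATG7 of the conjugation system had log2 fold changes of 0.40 and 0.11, at adjusted p = 0.298 and 0.842. All of these missed the threshold.

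The transcripts most used as readouts of autophagy were not called either. SQSTM1, which encodes the receptor p62, had 78.2 and 171 FPKM with 2-PCPA, against 92.2 and 144 FPKM with rapamycin (0.15, 95% confidence interval -0.21 to 0.52, adjusted p = 0.631). MAP1LC3B, which encodes LC3B of autophagosome membranes, had 37.5 and 47.6 FPKM with 2-PCPA, against 53.1 and 44.9 FPKM with rapamycin (-0.05, 95% confidence interval -0.43 to 0.32, adjusted p = 0.892). WIPI1 had 8.6 and 12.6 FPKM with 2-PCPA, against 7.39 and 15.5 FPKM with rapamycin, and its direction differed between tables (0.11, adjusted p = 0.858). GABARAPL1 had 29.8 and 40.2 FPKM with 2-PCPA, against 48.2 and 55.7 FPKM with rapamycin (-0.42, adjusted p = 0.255), and GABARAPL2 had a log2 fold change of -0.07. Transcript levels do not measure autophagic flux.

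**Figure D5:**
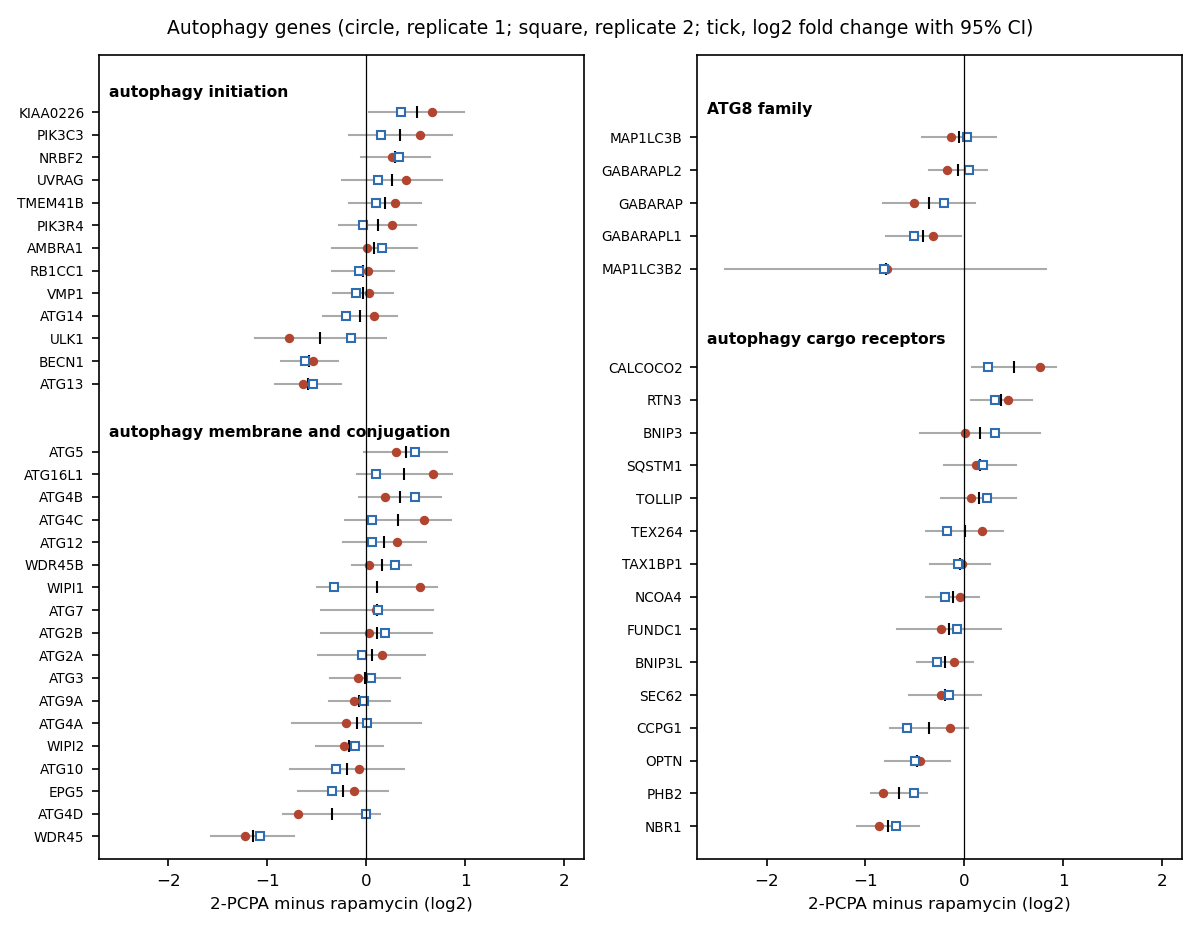
Difference between 2-PCPA and rapamycin in centred log2(FPKM + 1) for the 51 tested autophagy genes, with circles for the first table, open squares for the second, and ticks for the log2 fold change with its 95% confidence interval. WDR45 stands at -1.15 and most other genes lie within 0.5 of 0.

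Lysosomal genes, which TFEB induces when mTORC1 is inhibited, gave 0 called of 31 by limma. An unadjusted p below 0.05 was reached by 6 of the 31, and by 17.8% of all genes tested. Of the 31, 17 were lower and 7 higher in both tables, against 32.8% lower and 30.8% higher among all genes tested. The list's median was -0.22 (-0.04 with quantile normalization and -0.03 without the first 2-PCPA library). GAA, acid alpha-glucosidase, had 5.85 and 14.5 FPKM with 2-PCPA, against 20.7 and 18.3 FPKM with rapamycin (-0.84, adjusted p = 0.174). TFEB itself was low in both, at 5.68 and 3.05 FPKM with 2-PCPA and 2.76 and 2.05 FPKM with rapamycin (0.77, adjusted p = 0.256). The proton pump genes of the lysosome, 16 tested V-ATPase subunits, had a median of 0.21 (0.10 without the second rapamycin library and 0.14 without the first) and 0 called.

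Transcripts of the proteins that the compounds bind were not called. KDM1A had 33.8 and 52.1 FPKM with 2-PCPA, against 31.5 and 40.5 FPKM with rapamycin (0.38, adjusted p = 0.187). FKBP1A had 68.2 and 109 FPKM with 2-PCPA, against 101 and 110 FPKM with rapamycin (-0.13, adjusted p = 0.57). MTOR had 10.1 and 14.5 FPKM with 2-PCPA, against 18.8 and 13.3 FPKM with rapamycin, and its direction differed between tables (-0.21, adjusted p = 0.558). A list of 8 tested genes held the targets and the mTOR complex members RPTOR, MLST8 and RICTOR. Of the 8, 0 were called, and their log2 fold changes ran from -0.39 to 0.38. Transcript levels say nothing of whether either enzyme was inhibited.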

How the data were processed

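The authors deposited gene-level FPKM values, in a table of first replicates (10 libraries) and a table of second replicates (4 libraries). Per the submitters' processing notes, the tools were FastQC, cutadapt and TopHat2 and the build was hg19; sources used here do not give the FPKM program, annotation, strand or versions. FPKM holds no counts, so absolute depth is unknown.

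From these values, log2(FPKM + 1) was centred on each library's median over the 12475 tested genes. A limma 3.58.1 fit (R 4.3.3) took 8 libraries (2-PCPA, rapamycin, GSK343 and DMSO) with the replicate number, which is also the table, as a block. It used an intensity trend and had 3 residual degrees of freedom plus 4.06 from the prior. P-values were adjusted by the Benjamini-Hochberg method over all tested genes, with a threshold of 0.05. Deviations from group means of libraries with the same number correlated at 0.739 to 0.816 over 6 pairs, and the numbers were kept as a block. A difference between the tables alone would give such correlations. They do not show that libraries with the same number came from paired cultures. The fit was tested on simulated data, in which false calls were more frequent than the threshold allows, so calls just past it are less certain than stated. The simulated noise was independent between values and normally distributed. How far false calls are raised in the real libraries therefore cannot be read from it. Adding 1 to FPKM understates fold changes of low genes. Rows listed at 0 in both libraries of a table were not counted as higher or lower in both tables.

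The comparison and the 50 gene lists were chosen with earlier results of these data known. Named genes are the called genes, the direct drug targets, the called members and up to 5 further members of each list by size, and common reporters. Some of these were left out for length, a few are not reported here, and exceptions are marked where they occur. Promoter windows were matched by symbol for 20 of the 36 called genes, using Python 3.11.15. Alternatives tried were a pseudocount of 0.1 or 5, all rows without a filter, a mean of at least 5 FPKM, no centring, quantile normalization, no replicate block, no trend, robust eBayes, the spread from 2-PCPA and rapamycin alone or without DMSO, no small RNA or clone rows, and each library left out.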

Additional observations from a re-analysis of the deposited data

How the results depend on the processing

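Against 36 genes called, the count was 61 with a mean of at least 5 FPKM, 6 with no centring (which moved the median of all genes by -0.15), 3 with no replicate block, 5 with no intensity trend, 211 with robust eBayes, 3 with the spread from 2-PCPA and rapamycin alone, 6 with the spread taken without DMSO, and 274 without small RNA and clone rows. The other settings gave 27 to 51. With 1 library left out it ran from 48 to 77, the lone library being assumed to vary like the others. It was 61 without the first and 77 without the second 2-PCPA library, of which 11 and 22 were among the 36, and 48 and 49 without the first and second rapamycin library, of which 8 and 18 were. Over 177 named genes and 16 alternatives, 2385 log2 fold changes kept their direction and side of the threshold, 263 lost and 151 gained a call, and 10 changed sign, all of 6 genes near 0. Those were FKBP1A (0.0023), MAP1LC3B (0.0116) and GABARAPL2 (0.0199) with quantile normalization, WIPI1 (-0.0387) and ATG7 (-0.0388) with no centring. With 1 library left out, values ran from -0.43 to 0.0065 for MTOR, from -0.18 to 0.0726 for MAP1LC3B, from -0.18 to 0.0513 for GABARAPL2 and from -0.22 to 0.44 for WIPI1; the sign changed without the first rapamycin library and, for WIPI1, also without the first 2-PCPA library (-0.14). The causes were not tested. With 2 libraries a compound and unknown depth, differences smaller than about 0.44 log2 were within the median confidence interval.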

Other observations

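Glycolysis and hypoxia genes had medians of 0.22 (22 tested) and 0.23 (14 tested, 0.14 without the first and 0.36 without the second 2-PCPA library) between 2-PCPA and rapamycin. The glycolysis list had 0 called, and the hypoxia list had DDIT4 and VEGFA. PFKFB4, which sets fructose 2,6-bisphosphate, had 2.63 and 6.51 FPKM with 2-PCPA, against 1.4 and 2.39 FPKM with rapamycin (log2 fold change 1.02, adjusted p = 0.0914, or 0.0358 without small RNA and clone rows). The hexokinase gene HK2 had 5.82 and 6.71 FPKM with 2-PCPA, against 2.56 and 4.51 FPKM with rapamycin (0.86, adjusted p = 0.184). TXNIP, a glucose-sensing arrestin, had 2.91 and 4.02 FPKM with 2-PCPA, against 6.32 and 10.6 FPKM with rapamycin (-0.91, adjusted p = 0.166).

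Cell cycle genes were not called. DNA replication genes had a median of -0.24 over 31 tested, with 20 lower and 4 higher in both tables, and G2 and mitosis genes a median of -0.06 over 27. With 1 library left out these ran from -0.39 (without the second rapamycin library) to -0.12 (without the first) and from -0.13 to 0.00 (likewise). RRM2, a ribonucleotide reductase subunit, had 96.6 and 133 FPKM with 2-PCPA, against 228 and 188 FPKM with rapamycin (-0.71, adjusted p = 0.0909, or 0.0299 without small RNA and clone rows). CCND2, a G1 cyclin, had 49.5 and 68.0 FPKM with 2-PCPA, against 31.6 and 39.1 FPKM with rapamycin (0.86, adjusted p = 0.0592), and was called without small RNA and clone rows. The p53 target list (17 tested) had a median of -0.03, and the BCL2 family list (16 tested) one of 0.08; without the second 2-PCPA library these were -0.20 and 0.02, and without the second rapamycin library 0.00 and 0.01.

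Among matrix genes, COL4A1 and COL4A2, which share a promoter region, had log2 fold changes of -0.72 and -0.83 at adjusted p = 0.0835 and 0.0833. These were 0.0304 and 0.0246 without small RNA and clone rows. COL4A2 had 61.8 and 120 FPKM with 2-PCPA, against 171 and 173 FPKM with rapamycin. The circadian repressor NFIL3 had 11.9 and 12.6 FPKM with 2-PCPA, against 6.23 and 6.37 FPKM with rapamycin (1.01, adjusted p = 0.113, or 0.0371 without those rows). Of 11 H3K4 demethylase and CoREST genes 0 were called by limma. PHF21A, a reader of unmodified H3K4 in the KDM1A complex, had 7.67 and 8.33 FPKM with 2-PCPA, against 5.92 and 4.91 FPKM with rapamycin (0.64, adjusted p = 0.121).

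ESM1, a secreted proteoglycan, had 2.94 and 4.21 FPKM with 2-PCPA, against 6.78 and 38.4 FPKM with rapamycin, so its difference was -0.62 in the first table and -2.97 in the second. NOP56, a box C/D snoRNP protein whose gene hosts small nucleolar RNAs, had 36.1 and 52.9 FPKM with 2-PCPA, against 51.6 and 549 FPKM with rapamycin. Neither was called, and the second rapamycin library held the highest value of each.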
